A study of Mus musculus with 5 samples.

Results

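The 9 genes described here are interferon beta (Ifnb1), the 2 chains of its receptor (Ifnar1, Ifnar2), the receptor's kinases (Jak1, Tyk2), 2 subunits of the transcription factor complex ISGF3 (Stat2, Irf9) and 2 feedback inhibitors (Socs1, Usp18). They were selected by gene symbol from the 21289 genes of the count table, by their place in the pathway. Earlier results of these data were known when they were chosen. All 9 passed the filter on low counts that left 14508 genes for testing. Bulk messenger RNA came from CD45+CD64+ cells, that is leukocytes (CD45) of the monocyte and macrophage lineage (CD64), sorted from hearts of male wild-type C57BL/6JGpt mice 7 days after an infarction. The untreated group (2 samples) had infarction alone, and the curcumol group (3 samples) had infarction and 30 mg/kg curcumol, a plant sesquiterpene, by daily gavage. The series' title is about STING and type I interferon, and the comparison asks what curcumol did to that response. Every sample was infarcted, there is no sham group, and the labels do not say whether a sample is 1 animal or a pool.

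Interferon beta is a secreted cytokine that macrophages make when nucleic acid sensors such as cGAS and STING activate the transcription factors IRF3 and NF-kB. It binds a receptor of 2 chains, IFNAR1 and IFNAR2, which carry the kinases TYK2 and JAK1. These kinases phosphorylate STAT2, which joins IRF9 in the complex ISGF3, and ISGF3 binds the interferon-stimulated response element in the promoters of its target genes. SOCS1 blocks the kinases and USP18 displaces JAK1 from IFNAR2, so both limit further signalling. In infarcted hearts, macrophages that engulf dying cells are a known source of type I interferon.

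Of the promoters, 3 are shown because they hold matches to the kappa-B motif or to the interferon-stimulated response element. The stretches are 150 bases long and come from RefSeq's GRCm38.p6 assembly, printed 5′ to 3′ on the gene's strand, with matches to the searched motifs in capitals. A window of 250 bases before and 50 after the annotated start was found for 8 of the 9 genes, with 2 windows for Irf9 and none for Usp18.
Ifnb1 (chr4:88522795-88522944, minus strand): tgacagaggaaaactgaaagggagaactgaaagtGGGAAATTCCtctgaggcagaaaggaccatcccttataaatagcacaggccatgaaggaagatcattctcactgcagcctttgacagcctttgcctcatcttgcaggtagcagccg
Stat2 (chr10:128270248-128270397, plus strand): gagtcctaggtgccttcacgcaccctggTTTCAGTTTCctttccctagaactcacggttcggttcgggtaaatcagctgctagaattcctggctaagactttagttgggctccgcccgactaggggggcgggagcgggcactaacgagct
Socs1 (chr16:10785537-10785686, minus strand): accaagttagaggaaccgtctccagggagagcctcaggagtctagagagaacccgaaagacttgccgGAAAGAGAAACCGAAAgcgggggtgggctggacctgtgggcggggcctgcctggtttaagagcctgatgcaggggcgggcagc

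The capitals in the Ifnb1 promoter are a match to the kappa-B motif GGGAANNNCC, which NF-kB recognises, 116 to 107 bases before the annotated start. The motif was found on either strand in 5.78% of 32851 RefSeq windows of 300 bases. Those of Stat2 and Socs1 match the interferon-stimulated response element TTTCNNTTTC (GAAANNGAAA on the other strand), found in 3.44% of all windows. Stat2 had 1 match, 222 to 213 bases before the start, and Socs1 had 2 overlapping matches between 83 and 68 bases before it. The gamma-activated site TTCNNNGAA, the same on both strands and present in 8.3% of windows, was found in the Ifnar1 and Ifnar2 windows. None of the 3 motifs was found in the windows of Jak1, Tyk2 or Irf9. A match describes letters and does not show binding in these cells.

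**Figure D1:**
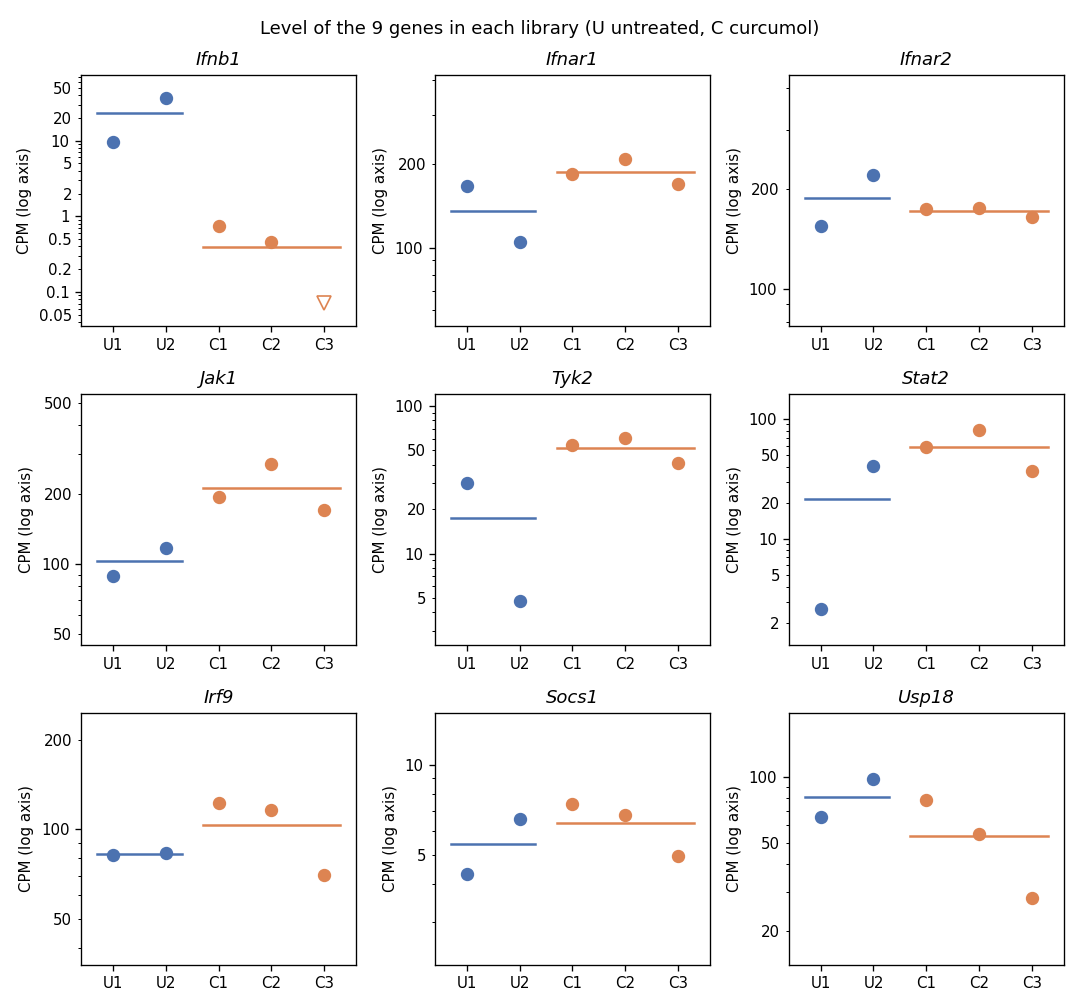
Level of each of the 9 genes in each library, as normalised counts (CPM, scaled to a common library total) on a log axis; points are libraries, lines are group means, and the open triangle marks a library without a count, drawn at the level of 3 counts. Untreated libraries hold 9.61 and 37.2 CPM of Ifnb1 and curcumol libraries 0.741 CPM or less, while Stat2 and Tyk2 differ most between the 2 untreated libraries.

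When curcumol was compared with untreated by edgeR's quasi-likelihood test, none of the 9 genes reached an adjusted p of 0.05, a threshold that 0.207% of all tested genes passed (0.0689% higher and 0.138% lower). Unadjusted, 2 members had a p under 0.05, Ifnb1 lower and Jak1 higher, where 24.6% of all tested genes did (18.1% higher, 6.51% lower). DESeq2 called these 2 members after adjustment, and 16.8% of the genes it adjusted. The groups' libraries did not overlap for 4 of the 9 genes, Ifnb1 lower and Ifnar1, Jak1 and Tyk2 higher. That is 44.4% of the members, and the share over all tested genes was the same 44.4% (29.5% higher, 14.9% lower), so the separation of these 4 is not particular to the pathway. The median log2 fold change of the members was 0.32, beside 0.15 over all tested genes. Values below are CPM scaled by trimmed-mean (TMM) factors, each log2 fold change is curcumol minus untreated with its SE, and n is 2 untreated and 3 curcumol samples.

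The ligand differed most. Ifnb1 (NCBI gene 15977) had 379 and 1454 counts in untreated replicates 1 and 2, which is 9.61 and 37.2 CPM, and 31, 20 and 0 counts in curcumol replicates 1 to 3, which is 0.741, 0.454 and 0 CPM. Every untreated library stood above every curcumol library, the lowest untreated value being 13.0-fold above the highest curcumol value. Poisson counting error was small beside this gap. It treats reads as independent and leaves out all other spread between libraries, which was present in every pair. The exact 95% Poisson interval was 8.66 to 10.6 CPM in the lower untreated library and 0.503 to 1.05 CPM in the highest curcumol library. In curcumol replicate 3, without a count, the upper end of that interval was 0.0866 CPM, and the usual limit of 3 counts was 0.0705 CPM. The group means were 23.4 ± 19.5 CPM (SD, n = 2) and 0.398 ± 0.374 CPM (SD, n = 3), a ratio of 58.7. On the log2 scale the fitted difference was -5.87 ± 1.40 (95% interval -9.24 to -2.49; quasi-likelihood adjusted p = 0.0725). DESeq2 gave an adjusted p of 7.15e-05 and edgeR without a filter on low counts 0.0454, and over all 12 alternatives it ranged up to 0.261 with a replicate block. Without untreated replicate 1 the log2 fold change was -6.53 (adjusted p = 0.00111) and without replicate 2 it was -4.56 (adjusted p = 0.0101), with the lone untreated library assumed to vary like the others.

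The untreated libraries themselves were 3.87-fold apart for Ifnb1. Of 1991 tested genes within 2-fold of its curcumol mean, 31.1% had a gap between the untreated libraries at least as wide. That mean, 0.398 CPM, is far below the untreated level of Ifnb1, 9.61 and 37.2 CPM. The share therefore cannot show how usual such a gap is at the untreated level. In bulk RNA, fewer Ifnb1-expressing cells and less Ifnb1 RNA per cell cannot be told apart.

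Other values moved with Ifnb1. Immediate early and stress genes respond to tissue dissociation, and 14 of them summed to 38390 and 39892 CPM in the untreated libraries and 11072 to 19239 CPM with curcumol, and 13 of the 14 had a negative log2 fold change. All 14 had counts in every library. At the adjusted threshold 1 of them, Hspa1a, fell, as did 0.138% of all tested genes. At an unadjusted p under 0.05 in edgeR 9 were lower, as were 6.51% of all tested genes. The part of these 14 genes in the Ifnb1 difference was not tested. Plasmacytoid dendritic cells are strong interferon producers. Their defining receptor Siglech had no count in the untreated libraries and 4.13, 4.77 and 3.43 CPM with curcumol. Both untreated libraries held fewer genes with a count, 12243 and 12915 against 17078 to 18501 with curcumol. The part of plasmacytoid dendritic cells in the Ifnb1 values was not tested. The summed level of their 7 matched markers was 123 and 118 CPM without and 137 to 164 CPM with curcumol, most of it Tcf4. The sorted identity showed in both groups, as 10 pan-macrophage and gate genes, Ptprc (CD45) and Fcgr1 (CD64) among them, together reached 36151 and 36146 CPM without and 29581 to 35286 CPM with curcumol. Most of this sum was Lyz2, at 24995 and 26055 CPM without and 20527 to 24144 CPM with curcumol. The other genes of the list went both ways without passing the test, Cd68 at a log2 fold change of -0.82 and Spi1 at -0.44, Itgam at 1.35 and Mertk at 1.36.

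**Figure D2:**
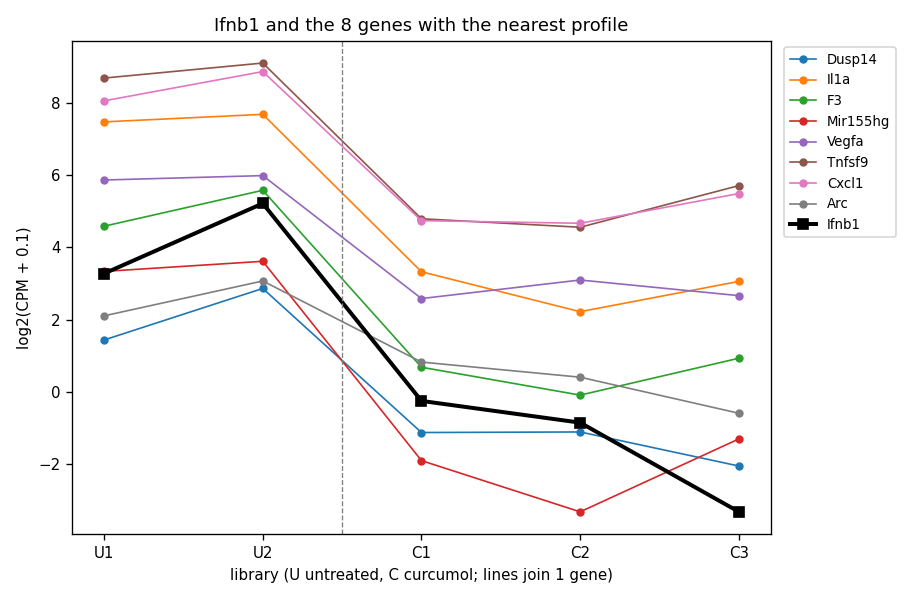
Ifnb1 (black squares) and the 8 genes whose profile over the 5 libraries was nearest to it, as log2(CPM + 0.1) by library; a line joins the values of 1 gene. All 9 profiles drop between the untreated and the curcumol libraries, and that of Ifnb1 drops to 0 CPM in curcumol replicate 3.

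The genes with the profile nearest to Ifnb1 were Dusp14, Il1a, F3, Mir155hg, Vegfa, Tnfsf9, Cxcl1 and Arc. Nearness was the root mean square difference of centred log2(CPM + 0.1) over the 5 libraries, among 10272 genes, and ranged from 1.27 for Dusp14 to 1.77 for Arc. Dusp14, a phosphatase of MAP kinases, stood at 2.61 and 7.19 CPM without and 0.358, 0.363 and 0.141 CPM with curcumol. It shared the higher level of untreated replicate 2 and the lowest level in curcumol replicate 3. Mir155hg, the host transcript of miR-155, stood at 10.01 and 12.2 CPM without and 0.167, 0 and 0.305 CPM with curcumol. These genes were picked for their likeness, so their direction is no evidence about Ifnb1.

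The other interferon genes had few counts. Of 20 listed genes for other type I, II and III interferons, 5 were matched in the table, and Ifna1, Ifnab and Ifnk had no count in any library. Ifna4 had counts in untreated replicate 2 alone, at 1.36 CPM, and was not tested. Ifna genes are near-identical copies whose reads may be lost or split in counting. Ifng, the type II interferon of T and NK cells, was without a count in both untreated libraries and had 0.119, 2.13 and 0.564 CPM with curcumol (adjusted p = 0.1002). The 9 T and NK cell markers summed to 46.4 and 45.8 CPM without and 51.2, 102 and 78.3 CPM with curcumol, with Cd3e and Cd3d at 0 in untreated replicate 1 and Ncr1 at 0 in both untreated libraries. Ifng and the marker sum were both highest in curcumol replicate 2, and the part of these cells in the Ifng values was not tested.

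Genes that regulate Ifnb1, at its promoter or upstream of it, showed no call. None of the 15 on this list passed the test, and 1 had an unadjusted p under 0.05, lower, as did 6.51% of all tested genes. Their median log2 fold change was -0.25 beside 0.15 over all tested genes, with 12 negative. Irf3 stood at 84.9 and 68.4 CPM without and 66.8, 52.7 and 67.6 CPM with curcumol, Tbk1 at 109 and 80.3 CPM against 81.6, 88.6 and 65.7 CPM, and Irf7 at 241 and 320 CPM against 231, 301 and 118 CPM. The smallest p belonged to Hmga1, an architectural protein of the Ifnb1 enhancer, at 111 and 122 CPM without and 68.4, 76.7 and 79.6 CPM with curcumol (log2 fold change -0.64 ± 0.16, adjusted p = 0.0758). Prdm1, a repressor of the Ifnb1 promoter, stood at 20.2 and 34.9 CPM against 11.5, 21.9 and 11.3 CPM, and the coactivator Crebbp at 9.12 and 18.9 CPM against 14.6, 38.6 and 29.2 CPM. The groups overlapped for these last 2.

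The receptor chains were well expressed in every library. Ifnar1, the chain that carries TYK2 (NCBI gene 15975), stood at 166 and 105 CPM without and 183, 208 and 170 CPM with curcumol. All 3 curcumol values were higher, but curcumol replicate 3 was close to untreated replicate 1, and untreated replicate 2 was the one low value. Fitted over all 5 libraries, the log2 fold change was 0.46 ± 0.23 (95% interval -0.10 to 1.03, adjusted p = 0.285). It was 0.84 without untreated replicate 1 and 0.19 without replicate 2, neither of which passed. Ifnar2, the chain that carries JAK1 (NCBI gene 15976), stood at 155 and 219 CPM without and 174, 176 and 164 CPM with curcumol. The curcumol libraries lay between the untreated ones and were 1.07-fold apart, and 96.6% of 1525 genes of a like level had a curcumol range at least as wide. Its log2 fold change was -0.13 ± 0.19 (95% interval -0.58 to 0.33, adjusted p = 0.754), and it turned positive with total counts as the scaling (0.057) or without untreated replicate 2 (0.16).

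The ratio of Ifnar2 to Ifnar1 counts within a library does not depend on the scaling. It was 0.932 in untreated replicate 1 and 2.09 in replicate 2, and 0.951, 0.843 and 0.968 in the curcumol libraries. Untreated replicate 2 stood apart from the other 4 libraries. The difference in mean log2 ratio was -0.60, with an exact permutation p of 0.3 (two-sided; 0.1 is the smallest that 2 against 3 samples can give). Without untreated replicate 2 it was -0.02 and without replicate 1 it was -1.19.

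Both receptor kinases were higher in every curcumol library. Jak1 (NCBI gene 16451), the kinase on IFNAR2 and on many other cytokine receptors, stood at 88.9 and 117 CPM without and 196, 272 and 172 CPM with curcumol. The lowest curcumol library was above the highest untreated one, and the group means differed 2.08-fold. This gave a log2 fold change of 1.05 ± 0.25 (95% interval 0.44 to 1.67; quasi-likelihood adjusted p = 0.0731). DESeq2 gave an adjusted p of 0.00356 and edgeR without untreated replicate 2 gave 0.0203, and over the 12 alternatives the log2 fold change ran from 0.84 to 1.28 and the adjusted p up to 0.137.

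Tyk2 (NCBI gene 54721), the kinase on IFNAR1, stood at 29.8 and 4.78 CPM without and 54.4, 60.0 and 41.2 CPM with curcumol. The untreated libraries were 6.23-fold apart, while the curcumol libraries were 1.46-fold apart. Of 3512 tested genes within 2-fold of its curcumol mean, 0.883% had an untreated gap at least as wide. That mean, 51.9 CPM, is above both untreated values of Tyk2. The share therefore cannot show how usual such a gap is at the untreated level. Its log2 fold change was 1.58 ± 0.71 (95% interval -0.13 to 3.30, adjusted p = 0.231). It was 3.44 without untreated replicate 1 (adjusted p = 6.32e-04) and 0.82 without untreated replicate 2 (adjusted p = 0.0814), so its size rests on which untreated library is used.

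**Figure D3:**
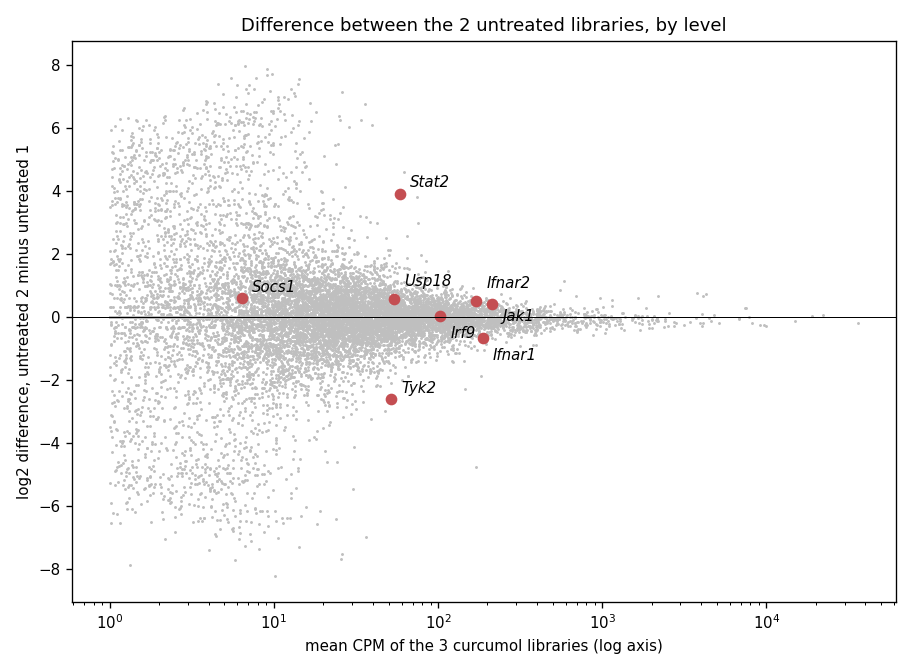
Difference between the 2 untreated libraries in log2(CPM + 0.1), untreated replicate 2 minus replicate 1, against the mean CPM of the curcumol libraries (log axis) for tested genes at 1 CPM or more (grey); 8 members are in red, and Ifnb1 is off the axis at 0.398 CPM. Stat2 at 3.91 and Tyk2 at -2.61 lie outside the bulk of genes of a like curcumol mean, in opposite directions. Both genes had lower values in the untreated libraries than that mean.

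Stat2 (NCBI gene 20847), the STAT particular to type I and III interferon signalling, showed the widest gap between the untreated libraries among the 9 genes. It had 102 counts in untreated replicate 1 and 1578 in replicate 2, which is 2.58 and 40.4 CPM, a 15.6-fold difference. The curcumol libraries held 58.5, 80.9 and 36.6 CPM, so untreated replicate 2 lay within their range and replicate 1 lay far below. Of 3347 tested genes within 2-fold of its curcumol mean, 0.239% had an untreated gap at least as wide. That mean, 58.6 CPM, is above both untreated values of Stat2, so this share has the same limit as that of Tyk2. Across all libraries the log2 fold change was 1.45 ± 0.997 (95% interval -0.96 to 3.85, adjusted p = 0.442). It was 4.52 without untreated replicate 2 (adjusted p = 2.99e-04) and 0.54 without untreated replicate 1 (adjusted p = 0.343).

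The low Stat2 was in 1 untreated library and the low Tyk2 in the other. Of the 2, untreated replicate 1 had the lower value for 7 of the 9 members (77.8%), and for 45.5% of all tested genes. Both untreated libraries held fewer genes than the curcumol libraries, 12243 and 12915 genes with a count against 17078 to 18501, at total counts of 39768705 to 43315822. The part of this difference in the Stat2 and Tyk2 gaps was not tested.

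Irf9 (NCBI gene 16391), the DNA-binding subunit of ISGF3, was level between the untreated libraries where Stat2 was not. It stood at 82.3 and 83.4 CPM without and 123, 116 and 70.2 CPM with curcumol. Of the curcumol libraries 2 were above and 1 was below both untreated libraries. The log2 fold change was 0.32 ± 0.27 (95% interval -0.33 to 0.96, adjusted p = 0.540). The ratio of Irf9 to Stat2 counts was 31.8 in untreated replicate 1 and 2.07 in replicate 2, and 2.11, 1.44 and 1.92 with curcumol, so 4 of the 5 libraries lay close together. The difference in mean log2 ratio was -2.17, with an exact permutation p of 0.2 (two-sided), and -0.20 without untreated replicate 1 or -4.15 without untreated replicate 2.

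The feedback genes did not differ beyond their spread. Socs1 (NCBI gene 12703), which inhibits JAK1 and TYK2 directly, was the lowest member of the untreated group by its mean per transcript length and stood at 4.33 and 6.57 CPM without and 7.41, 6.81 and 4.96 CPM with curcumol. The groups overlapped, and its log2 fold change was 0.23 ± 0.55 (95% interval -1.09 to 1.55, adjusted p = 0.859), which turned to -0.037 without untreated replicate 1. The 5 genes with the nearest profile were Pgrmc2, Taf6, Opa1, Phc2 and Usp1, at root mean square differences of 0.07 to 0.08.

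Usp18 (NCBI gene 24110), which both blocks JAK1 at IFNAR2 and removes ISG15 from proteins, stood at 65.2 and 97.0 CPM without and 78.7, 55.1 and 28.0 CPM with curcumol. Its highest library was untreated replicate 2, its lowest was curcumol replicate 3, and curcumol replicate 1 lay between the untreated libraries. The log2 fold change was -0.59 ± 0.42 (95% interval -1.61 to 0.44, adjusted p = 0.465). The curcumol libraries were 2.81-fold apart, a range that 1.56% of 3457 genes of a like level matched or passed.

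Per Usp18 count there were 0.0665 and 0.0678 Socs1 counts without and 0.0942, 0.124 and 0.177 with curcumol. All 3 curcumol ratios were higher. The difference in mean log2 ratio was 0.92, and between 0.68 and 1.14 with any 1 library left out. The exact permutation p was 0.2 (two-sided), and adjusted over the 3 ratios computed it was 0.3, as for the other 2.

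**Figure D4:**
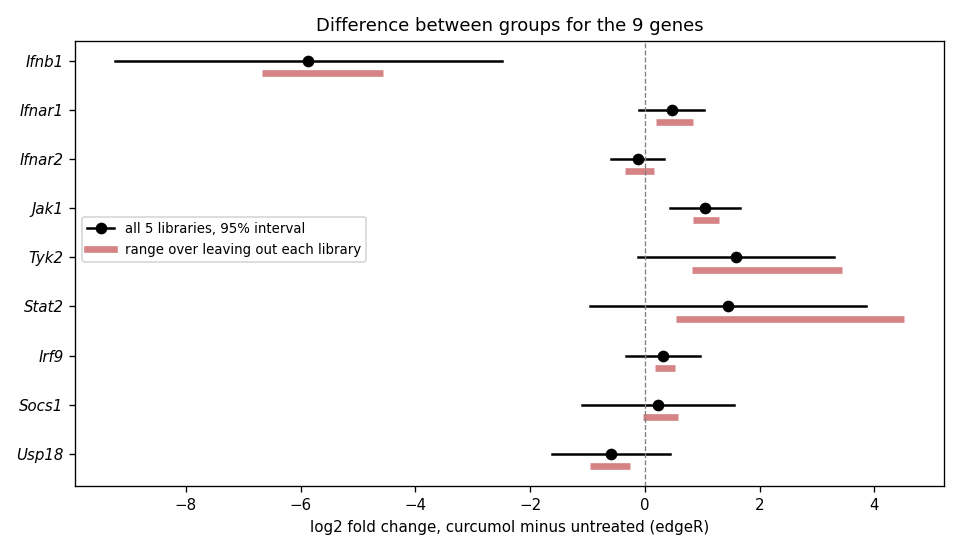
Log2 fold change of each of the 9 genes, curcumol minus untreated, in edgeR with its 95% interval (black), and the range over fits that each leave out 1 library (red). Ifnb1 and Jak1 have intervals that do not reach 0, and the red ranges of Tyk2 and Stat2 are the widest of the 9, up to 3.44 and 4.52.

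Per kilobase of transcript, Ifnar2 had the highest mean of the 9 genes in both groups. In the curcumol libraries Ifnar2 stood at 56.2 ± 2.03 CPM per kb (SD, n = 3), Ifnar1 at 47.8 ± 5.03, Jak1 at 43.5 ± 10.7, Irf9 at 34.9 ± 9.71 and Usp18 at 30.5 ± 14.3 CPM per kb. Ifnar2 was above Ifnar1 in range, and from Ifnar1 to Usp18 each gene overlapped the next. Stat2 followed at 13.3 ± 5.04 and Tyk2 at 10.7 ± 2.003, which overlapped each other, then Socs1 at 2.20 ± 0.440 and Ifnb1 at 0.531 ± 0.498 CPM per kb, each apart from the one before. In the untreated libraries Ifnar2 was followed by Usp18 at 45.8 ± 12.7 and Ifnar1 at 34.7 ± 11.1 CPM per kb (SD, n = 2), each overlapping the one before. Ifnb1 there ranked above Irf9 and Jak1 by its mean, at 12.8 and 49.6 CPM per kb, in a range that overlapped each of the genes from Usp18 to Jak1 but not Ifnar2. Tyk2 stayed below Jak1 in each of the 5 libraries, at 0.991 to 12.4 against 18.1 to 55.5 CPM per kb. Lengths were those of the longest coding transcript in GENCODE M21, so a shorter main isoform would be understated.

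The kinases, STATs and receptors that this pathway shares with other cytokines were mostly higher with curcumol without passing the test. All 7 other JAKs and STATs on the list had a positive log2 fold change, with a median of 0.56 beside 0.15 over all genes. None passed, and 3 were higher at an unadjusted p under 0.05, as were 18.1% of all tested genes. Stat3, the STAT of IL-6 and IL-10, stood at 148 and 124 CPM without and 221, 268 and 200 CPM with curcumol (0.76 ± 0.19, adjusted p = 0.0765). Jak2, which pairs with JAK1 on the interferon gamma receptor, stood at 16.1 and 19.9 CPM against 34.0, 32.7 and 26.9 CPM, and Stat6, the STAT of IL-4, at 144 and 104 CPM against 191, 238 and 169 CPM (adjusted p = 0.116 and 0.122). Groups did not overlap for any of these 3, which were picked for the smallest p. They were 42.9% of the list, and 29.5% of all tested genes were higher without overlap.

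Of 15 other receptor chains none passed, 7 were higher and 1 lower at an unadjusted p under 0.05 (18.1% and 6.51% over all tested genes), with a median log2 fold change of 0.65. The interferon gamma receptor chains lay close in all libraries: Ifngr1 ranged from 746 to 828 CPM and Ifngr2 from 183 to 219 CPM, with log2 fold changes of -0.00417 ± 0.14 and 0.03 ± 0.15. With total counts as the scaling, Ifngr1 was at 0.18. Osmr, the oncostatin M receptor, had no count in the untreated libraries and 0.932, 1.32 and 0.752 CPM with curcumol (adjusted p = 0.0662). Csf3r, the G-CSF receptor, stood at 82.7 and 97.2 CPM without and 159, 137 and 175 CPM with curcumol (adjusted p = 0.0683). Csf2ra, the alpha chain of the GM-CSF receptor, went the other way, at 708 and 627 CPM against 464, 375 and 343 CPM (adjusted p = 0.0730). Csf2rb, a chain of the same receptor, was higher with curcumol, at 85.2 and 79.5 CPM against 118, 145 and 124 CPM (adjusted p = 0.0787).

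Csf3r is also a neutrophil gene. A set of 10 neutrophil markers, Csf3r among them, summed to 394 and 422 CPM in the untreated libraries and 1572 to 3538 CPM with curcumol. Camp and Ly6g were at 0 in both untreated libraries. Of the 10, 2 passed the threshold, both higher, as did 0.0689% of all tested genes. Osmr is best known from stromal cells, and 7 fibroblast markers summed to 36.8 and 29.0 CPM without and 131 to 329 CPM with curcumol, with Pdgfra and Lum at 0 in the untreated libraries. Other marker lists were higher as well. The 6 endothelial markers summed to 4.66 and 5.09 CPM without and 21.0 to 29.4 CPM with curcumol. The 5 B cell markers summed to 54.7 and 36.5 CPM without and 67.0 to 98.9 CPM with curcumol. The erythroid sum went the other way, at 30.6 and 62.9 CPM against 10.7 to 21.4 CPM. Both untreated libraries held fewer genes with a count. The part of any of these cells in the receptor values was not tested.

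Other inhibitors of the pathway went both ways, with 6 of 16 positive, a median of -0.17 and none past the test. Groups did not overlap for 5 of the 16 that were higher (31.2%) and 3 that were lower. Over all tested genes 29.5% were higher and 14.9% lower without overlap. Pias4, Socs3 and Pias2 had the smallest p. Socs3, the inhibitor of IL-6 signalling, stood at 556 and 529 CPM without and 345, 246 and 417 CPM with curcumol (-0.69 ± 0.24, adjusted p = 0.132). Every curcumol library was below both untreated ones, unlike Socs1. The SUMO ligases Pias4, at 19.3 and 19.7 CPM against 32.6, 32.7 and 35.3 CPM (adjusted p = 0.0857), and Pias2, at 14.2 and 15.6 CPM against 21.8, 22.6 and 26.5 CPM (adjusted p = 0.188), were higher in every curcumol library. Isg15, which holds USP18 in its stable form in human cells, stood at 14.1 and 21.4 CPM without and 19.4, 19.3 and 11.3 CPM with curcumol, and its log2 fold change of -0.090 turned to 0.090 with total counts.

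**Figure D5:**
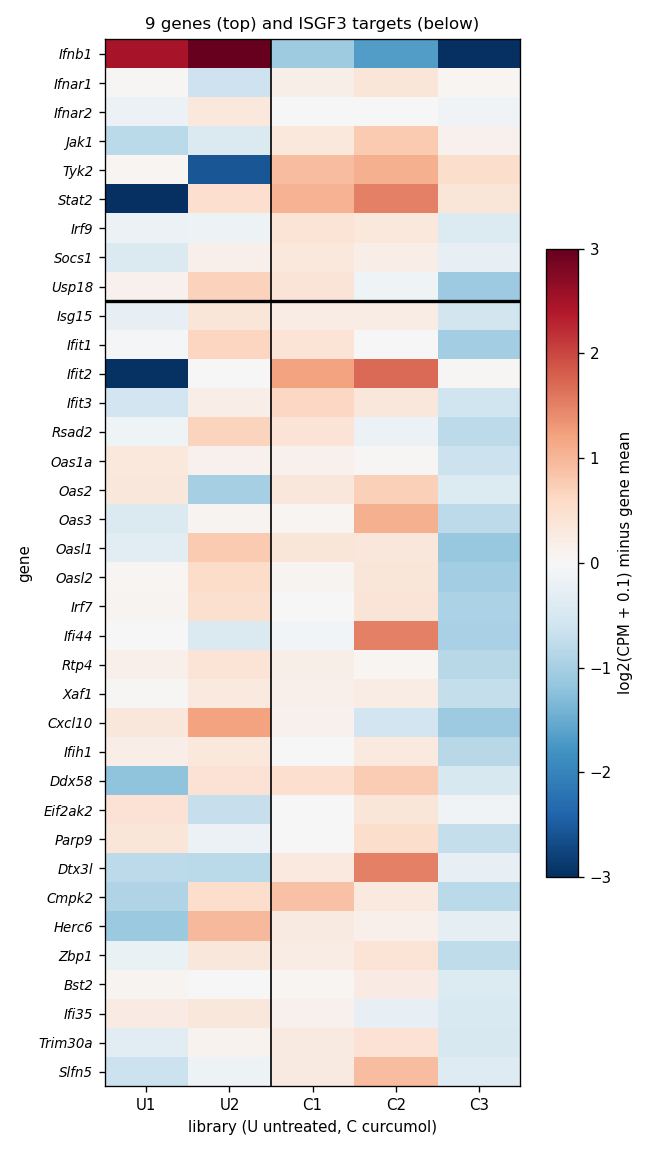
Level of the 9 genes (above the black line) and of 27 ISGF3 target genes (below it) in each library, as log2(CPM + 0.1) minus the gene's mean over the 5 libraries, with colours clipped at -3 and 3. Curcumol replicate 3 is the lowest curcumol library in all 9 and all 27 rows, and no target shows a drop between the groups as wide as that of Ifnb1.

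The target genes of ISGF3 showed no shared direction between the groups. Of 29 listed targets 27 were matched and tested, none passed, and log2 fold changes were above 0 for 11 and below it for 16, with a median of -0.090. Their mean log2(CPM + 0.1) was 5.43 and 5.90 in untreated replicates 1 and 2, where Ifnb1 was 9.61 and 37.2 CPM, and 5.96, 6.14 and 5.05 in curcumol replicates 1 to 3, where it was 0.741, 0.454 and 0 CPM. Gene by gene, untreated replicate 2 was higher than curcumol replicate 1 for 15 of 27 targets and than curcumol replicate 2 for 14 of 27, with a median difference of 0.022 and 0.016 on the log2 scale. The library without an Ifnb1 count had the lowest mean. In the pair of untreated libraries 20 of 27 targets were higher in replicate 2, which also had more Ifnb1.

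Target genes with the smallest p were Cxcl10, a T cell attracting chemokine, at 113 and 204 CPM without and 96.9, 59.5 and 41.6 CPM with curcumol (adjusted p = 0.112), Dtx3l, a ubiquitin ligase, at 18.3 and 18.0 CPM against 38.5, 90.1 and 26.4 CPM (adjusted p = 0.143), and Ifi35 at 125 and 132 CPM against 115, 89.1 and 77.1 CPM (adjusted p = 0.231). Ifit2 repeated the gap of Stat2, at 4.36 CPM in untreated replicate 1, 35.0 CPM in replicate 2 and 79.8, 113 and 35.4 CPM with curcumol. It was singled out after its values were seen.

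Curcumol replicate 3 was the lowest curcumol library for all 9 members and for all 27 targets, and for 33.7% of all tested genes. It was also the lowest in the summed macrophage and gate genes, at 29581 CPM. With that library left out the log2 fold change was -5.29 for Ifnb1 and 1.19 for Jak1, and no member passed.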

How the data were processed

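Bulk RNA of sorted cardiac cells was sequenced, and the authors deposited raw counts per gene as whole numbers. Tools named in the submitters' processing notes are Bowtie2, HISAT2, HTSeq and fastp. Their versions, the build and the annotation are not given in the sources. Per the labels the kit is named in 2 ways, so strandedness is not settled.

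Curcumol was compared with untreated in edgeR 4.0.16 (R 4.3.3) on all 5 libraries: TMM factors, filterByExpr with a minimum count of 10, group as the only term, 3 residual degrees of freedom, two-sided, Benjamini-Hochberg over 14508 genes. SEs were log2 fold change over the root of F. Libraries are replicates by label alone, so p-values measure the spread between samples, which may be technical. All pairs of libraries differed beyond sampling noise (chi-square per gene of 92.1 or more). Alternatives used DESeq2 1.42.0 and limma 3.58.1.

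Promoter windows were RefSeq's (GRCm38.p6) and were searched on both strands. The members and lists were chosen with earlier results of these data known. Named genes were all members, list members past the threshold or else the 3 with the smallest p, 8 fixed partners, and the nearest profiles of Ifnb1 and Socs1. Csf2rb was added beside Csf2ra as a chain of the same receptor. A further listed gene is not reported here.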

Additional observations from a re-analysis of the deposited data

How the results depend on the processing

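The number of genes past the threshold, 30, was 10 with total counts, 2653 with DESeq2, 1661 with limma-voom, 416 without a filter on low counts, 98 with a CPM of at least 1 in 2 samples, 45 with a replicate block, and 0 to 3531 with 1 library left out (0 without curcumol replicate 2, where 2383 had an unadjusted p under 0.05). Of the members, 0 passed, against 2 with DESeq2, 1 without the filter and 0 to 3 with 1 library left out. Of the genes on the pathway lists, 0 passed, against 16 with DESeq2, 3 with limma-voom, 1 with a replicate block and 0 to 12 with 1 library left out. These lists held 15 regulators of Ifnb1, 1 ligand, 15 receptor chains, 7 JAKs and STATs, 16 inhibitors and 27 targets tested in the main fit. Irf7 and Isg15 are each on 2 of them. DESeq2 called Hmga1, Ifng, Osmr, Csf3r, Csf2ra, Csf2rb, Stat3, Jak2, Pias4, Pias2, Cxcl10 and Dtx3l of the genes named above. It also called 16.8% of all 15767 genes it adjusted, so its call alone does not set a listed gene apart. The count over all genes was also above 30 in each fit that called a listed gene. The higher leave-one-out counts came without untreated replicate 1 or 2, when the spread rests on the curcumol libraries alone. Same-numbered libraries did not deviate together (r = 0.03 and -0.02). Both values rest on the same difference between the 2 untreated libraries, so they cannot show whether the numbers pair samples. The block changed no member's call. Signs turned with total counts for Ifnar2 (0.057), Isg15 (0.090) and Ifngr1 (0.18), with a replicate block for Isg15 (0.16) and Ifngr1 (0.00159), and with 1 library left out for Ifnar2 (-0.35 to 0.16), Socs1 (-0.037 to 0.58), Isg15 (-0.35 to 0.26), Ifngr1 (-0.042 to 0.033) and Ifngr2 (-0.091 to 0.18). The cause was not tested. The 3 count ratios kept their sign with a prior count of 5 and without any 1 library. Depth limits low genes: 3 counts equal 0.0760 and 0.0767 CPM in the untreated libraries, and Ifnb1 in curcumol rests on 51 counts in all.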
